A study of Mus musculus with 6 samples.

Results

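Ribosomal protein genes were followed as 1 gene family in the peak lists of 6 ATAC-seq libraries, in which the transposase Tn5 inserts adapters into accessible DNA. The family held 91 of 21883 protein-coding genes. Members were chosen by symbol alone: Rpl or Rps followed by a digit, or Rplp0, Rplp1, Rplp2 or Rpsa, without the kinases of the Rps6k group. Of the 91, 43 encode proteins of the large subunit, 31 proteins of the small subunit and 3 the stalk of the large subunit. The other 14 are paralogs or namesakes, among them Rpl3l, Rpl10l, Rpl39l, Rpl22l1, Rps27l and the Rps19-binding protein gene Rps19bp1. The members lay on 19 chromosomes, with 14 on chromosome 7. A gene had a peak where a deposited peak overlapped it or 1 kb on either side, and its height was that of its tallest peak there.

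The libraries came from regulatory T cells (Tregs), CD4+CD25+GITR+ cells sorted from lymph nodes draining a B16.F10 melanoma, which is a transplantable mouse tumour line. Nodes were taken on day 14 after 300000 tumour cells had been injected under the skin, so every group carried a tumour. There were 3 libraries of wild-type mice (WT, C57BL6, replicates 2, 4 and 6) and 3 of il33-/- mice in the C57BL6 background (KO, replicates 1, 2 and 4). Il33 encodes interleukin-33, an alarm cytokine of the interleukin-1 family, and the labels name no promoter or cell type that limits its deletion. Age and sex are not in the labels used here. The labels do not say that replicates came from separate mice, so a p-value reflects only how these libraries spread, and that spread may be technical.

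The ribosome is built from a small subunit, which reads the messenger RNA, and a large subunit, which joins the amino acids. Cells make the proteins of both subunits in matched amounts, and their genes are among the most strongly transcribed in growing lymphocytes. Most of these genes are short, many carry small nucleolar RNA (snoRNA) genes in their introns, and their messages start with a run of pyrimidines, through which the kinase mTOR and the protein Larp1 control translation.

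The libraries differed in depth in the same way as in genotype. The WT libraries held 12.9 to 15.2 M (mega) kept tags and the KO libraries 4.72 to 10.3 M. Duplicates made up 13.8% to 14.7% of the WT and 8.37% to 9.06% of the KO tags, and the lists held 52836 to 55939 and 37266 to 42738 peaks. On chromosome Y, 9, 8 and 9 peaks were called in WT and 0 in all KO libraries. Whether a difference between the groups below goes with genotype, depth, duplicates or whatever sets the chromosome Y peaks cannot be told apart. Of 7 T cell and Treg markers, Foxp3 and Cd4 among them, 6 had a peak in all 6 libraries, and Tnfrsf18 (GITR) had none in KO replicate 4. The marker list summed to 43 to 47 peaks in WT and 26 to 32 in KO. The B cell markers summed to 5 to 7 and 3 to 5 peaks, the CD8 T and NK markers to 2 to 5 and 1 to 3, the myeloid markers to 4 and 3 to 5, and the melanoma markers to 4 to 5 and 4. Ms4a1, Ncr1, Csf1r, Lyz2, Tyr, Dct and Sox10 were at 0 in all 6 lists. Pmel had 3 or 4 peaks in every list, and its tallest averaged 5.17 times the median pileup of the list. Mlana, Pax5, Itgam, Cd14 and Cd8b1 also had a peak in all 6 lists, Cd79a and Klrb1c in 5 and Cd8a in 4. The part of other cells in the results was not tested. Il33 had 1 peak in every library, and since the sources used here do not place the deleted part, that peak checks no label.

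Sequence around the transcription start is shown first for 8 members, from 100 bases before to 20 bases from the start, 5′ to 3′, from RefSeq on GRCm38.p6 (the assembly behind mm10). Capitals mark matches, on either strand, to the motifs listed in the next paragraph. Rpl27a, Rps19, Rpl13a and Rps13 had the tallest peaks among the members with an annotated start.
Rpl27a (chr7:109519095-109519214, plus strand): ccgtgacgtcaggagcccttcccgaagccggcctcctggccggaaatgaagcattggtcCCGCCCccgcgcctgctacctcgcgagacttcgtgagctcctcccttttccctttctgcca
Rps19 (chr7:24884492-24884611, plus strand, 1 of 3 annotated starts): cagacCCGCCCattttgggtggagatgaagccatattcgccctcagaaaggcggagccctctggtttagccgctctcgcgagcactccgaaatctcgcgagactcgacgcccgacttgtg
Rpl13a (chr7:45128726-45128845, minus strand): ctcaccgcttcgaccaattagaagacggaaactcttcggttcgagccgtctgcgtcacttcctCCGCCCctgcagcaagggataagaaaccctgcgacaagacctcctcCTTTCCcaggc
Rps13 (chr7:116334171-116334290, minus strand): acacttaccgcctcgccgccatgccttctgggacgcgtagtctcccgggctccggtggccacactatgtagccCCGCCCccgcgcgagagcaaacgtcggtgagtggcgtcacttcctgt
Rpl37a was among the members with the largest KO to WT difference, and Rps4x had the lowest peak of all 77 structural genes.
Rpl37a (chr1:72711160-72711279, plus strand): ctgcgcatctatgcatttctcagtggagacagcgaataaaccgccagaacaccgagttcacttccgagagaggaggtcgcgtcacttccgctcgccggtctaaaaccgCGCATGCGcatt
Rps4x (chrX:102189372-102189491, minus strand): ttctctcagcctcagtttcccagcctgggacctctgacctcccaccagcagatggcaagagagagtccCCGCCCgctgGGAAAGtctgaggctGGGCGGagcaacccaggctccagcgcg
Rpl10l and Rpl39l had no peak in any library.
Rpl10l (chr12:66284382-66284501, minus strand): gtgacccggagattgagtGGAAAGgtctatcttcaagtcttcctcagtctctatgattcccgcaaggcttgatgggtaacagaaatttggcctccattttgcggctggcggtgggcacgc
Rpl39l (chr16:10170128-10170247, plus strand): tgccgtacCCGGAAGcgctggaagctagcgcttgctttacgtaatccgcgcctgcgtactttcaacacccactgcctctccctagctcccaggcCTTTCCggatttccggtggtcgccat

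Promoters of the family were read in the window from 250 bases before to 50 bases from the start, which the table gave for 82 starts of 70 members. The other 21 members, Rpl30, Rpl8, Rplp1 and Rps14 among them, were left out of every statement on starts. CCGGAAG, the core bound by ETS factors such as GABP, was in 32.9% of the members' windows and in 11.6% of the 21262 windows of all protein-coding starts. Among starts that lay in a peak in all 6 libraries, the shares were 36.6% of 71 and 22.7% of 9171. CTTTCC, part of the pyrimidine-rich start, was in 52.1% of those 71 open windows and 26.0% of the 9171. AAGATGG, the core of the YY1 site, was in 15.5% and 8.09%. For the motifs that follow, the comparison turned with the set of starts. GGGCGG, the SP1 and KLF box, was in 63.4% of open member windows and 69.8% of all open windows, but in 57.3% of all member windows and 46.2% of all windows. CACGTG, the E box of MYC and USF, was in 9.86% and 11.3% of open windows and in 9.76% and 7.84% of all windows. GCATGCG, the NRF1 core, was in 7.04% and 7.79% and in 6.10% and 4.44%, which at members is 5 starts. TATAAA, the TATA box, was in 8.45% of open member windows and 5.57% of all open windows. A run of 5 pyrimidines from the base before the start was found at 22.5% of the open member starts and 4.54% of all open starts, and C was the first transcribed base at 31.0% and 13.9%. The median GC content was 59.0% and 62.0% in open windows, but 57.8% and 56.3% in all windows. All motifs were searched on both strands, where GCATGCG can overlap its own reverse match, as at Rpl37a. A match describes letters and not a bound factor. Median height was 3.65 times the list median in 21 members with CCGGAAG at their start and 3.41 in 32 without, and 3.53 in 26 with CTTTCC and 3.60 in 27 without.

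Chromatin at the structural ribosomal protein genes was open in every library. All 77 genes of the large subunit, small subunit and stalk had a peak in all 6 lists, and so did 7 of the 14 paralogs and namesakes. The resulting 84 members stood beside 13001 of all 21883 protein-coding genes, which is 59.4%. Each WT list had a peak at 85 members, and the KO lists at 84, 84 and 85. Over all protein-coding genes the share with a peak was 66.0% to 66.8% in WT and 61.4% to 62.9% in KO, so the shorter KO lists held fewer genes but nearly all the same members. The 1 member that separated the lists was Rpl37rt, a namesake on chromosome 5 (115102922 to 115110268), whose window holds Acads. Its peak was at 0.50, 0.56 and 0.62 times the list median in WT and 0.43 in KO replicate 4, and it was not called in KO replicates 1 and 2, the shallowest libraries. No peak was called in any list at Rpl10l, Rpl39l, Rpl32l, Rps23rg1, Rps27rt and Rpl31-ps12. Absence from a list means that no peak was called at that depth.

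The peaks lay on the promoters. Of the 63 open members with an annotated start, the tallest peak covered a start in all 6 libraries at 57, and some peak did so at 62. At the 48 of these 57 that have a single start, the summit lay at a median of -35.5 bp from it (negative is upstream), with quartiles of -58.1 and -14.4 bp. It was upstream of the start in 38 genes and downstream in 10. The farthest were Rps26, at -337.5 bp, and Rpl27, at 124 bp. The range of a member's summits over the 6 lists had a median of 42 bp over the 84 members, and 71 members stayed within 200 bp. The other members had ranges of up to 9921 bp, at Rpl7l1, where 1 library had its tallest peak in the flank. At Rpl10 and Rps18, named after their values were seen, the summit positions of WT and KO did not overlap. They were also apart at other members, such as Rps10 and Rps3a1, and the share of all genes with such a separation was not counted. Rpl10 had its summit at -113, -188 and -154 bp in WT and -498, -476 and -492 bp in KO, and Rps18 at -47, -48 and -53 bp and -156, -167 and -150 bp. Rpl39 had -2, -2 and -302 bp in WT and -281, -314 and -316 bp in KO, so 1 WT library lay with the KO libraries.

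**Figure D1:**
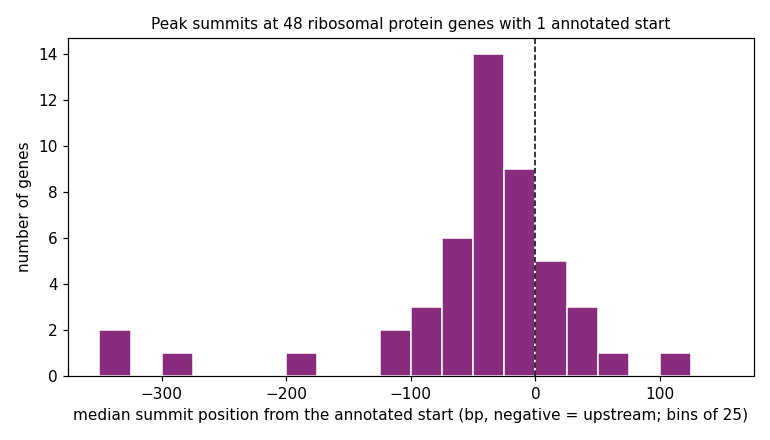
Position of the peak summit at 48 ribosomal protein genes with 1 annotated start. The horizontal axis is the median over 6 libraries of the distance from the start in bp (negative is upstream, bins of 25 bp) and the vertical axis the number of genes. Most bars stand just upstream of the start, with a median of -35.5 bp, and 38 of 48 summits are upstream.

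A few tallest peaks lay at the edge of a neighbouring gene. At Rpl4, a large-subunit gene that holds 5 snoRNA genes, the tallest peak lay in the flank by Snapc5, with a mean height of 2.73. The region over its own start, chr9:64172445-64173788, which it shares with the edge of Zwilch, had a mean of 2.00. Rpl41 and Rpl18 each had their tallest peak away from the start in 4 of the 6 libraries, by Zc3h10 and Sphk2. At Rpl18 these were WT replicate 6 and all 3 KO libraries, and at Rpl41 they were all 3 WT libraries and KO replicate 2, so their WT and KO heights come in part from different regions. At Rpl13a the tallest peak of 2 libraries lay in the flank and not over the start. Rpl3l, the muscle form of Rpl3, had no peak over its start in any library. Its only region, chr17:24736123-24737132, lies at the edge of Msrb1. In all, 32 of the 84 open members shared their window with another protein-coding gene and 52 did not.

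The peaks of the family were tall and alike in height. Heights are given as multiples of the median pileup of all peaks in the same list, where pileup is the number of extended tags at the summit. The values of single peaks are the authors' own. The median member stood at 3.63, 4.00 and 3.74 in the WT libraries (replicates 2, 4 and 6) and 3.45, 3.25 and 3.17 in the KO libraries (replicates 1, 2 and 4). The 13001 genes with a peak in every list had medians of 2.93, 3.15 and 3 in WT and 2.55, 2.38 and 2.39 in KO. Within each whole peak list, the median member stood at percentile 92.3 to 95.4. Among the 13001 genes it stood at percentile 72.9 to 75.4, with WT and KO overlapping, so it lay above the middle but not at the top of open genes.

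Averaged over the 6 libraries, heights ran from 1.04 to 4.79 over the 84 members, with quartiles of 3.07 and 4.02 around a median of 3.53. All 13001 genes had quartiles of 1.78 and 3.57. At least 3 times the list median was reached by 67 members (79.8%) and 41.6% of all genes, but at least 5 times by 0 members and 0.708% of all genes. The SD of log2 mean height was 0.324 over the members, 0.270 over the structural ones and 0.769 over all genes. The 78 mitochondrial ribosomal protein genes, whose products serve a separate ribosome in the mitochondrion, had a median of 2.98 and an SD of 0.470. Among the other lists described below, 32 biogenesis genes had 3.33 and 0.325, 30 initiation factors 3.38 and 0.425, and 18 regulators 3.20 and 0.588. The 7 elongation factors had 3.98 and 0.328, and 5 ubiquitin fusions and partners 4.35 and 0.224. Neither the height nor the narrow spread was thus particular to this family. The order of members was much the same in every library, with Pearson's r of log2 heights of 0.849 to 0.929 over the 15 pairs of libraries. Over all genes it was 0.944 to 0.968, where the range of heights is wider. These correlations are across genes, which share the library and its depth, and are given as descriptions.

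**Figure D2:**
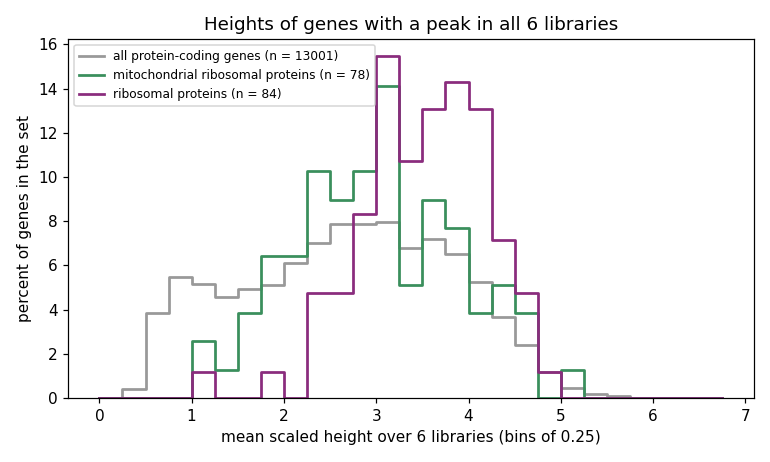
Mean scaled height over 6 libraries (horizontal axis, multiples of the list's median pileup, bins of 0.25) against the percent of genes in the set (vertical axis), for 84 ribosomal protein genes, 78 mitochondrial ribosomal protein genes and 13001 protein-coding genes with a peak in all 6 libraries. The ribosomal protein genes fill a narrow band around a median of 3.53 and none reaches 5.

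In the large subunit, heights ranged from 2.34 at Rpl19 to 4.79 at Rpl30, with a median over the 43 genes of 3.33. Rpl30 (chromosome 15, 34440505 to 34443276), which binds bent RNA in the ribosome, had the tallest peak of the family. Its heights were 5.14, 5 and 5.45 in WT and 4.80, 4.56 and 3.78 in KO. Rpl27a (chromosome 7, 109519195 to 109522369) followed with 4.96, 5.41 and 5.17 in WT and 4.50, 3.75 and 4.43 in KO. At both genes every KO library was below every WT library, as at 55.3% of all 13001 genes. Rpl13a (chromosome 7, 45125563 to 45128745), which besides its place in the ribosome can silence inflammatory messages, had 4.71, 5 and 4.41 in WT and 4.55, 4.44 and 4.04 in KO, and the groups overlapped. Rpl5 and Rpl11 encode the pair that binds and inhibits Mdm2 when ribosome assembly is disturbed. Rpl5 (chromosome 5, 107900508 to 107909005) had 3.36, 3.74 and 3 in WT and 2.70, 2.88 and 2.78 in KO, without overlap. Rpl11 (chromosome 4, 136049354 to 136053393) had 3.54, 4.19 and 3.86 and 3.60, 3.94 and 2.83, with overlap. Rpl22, needed for the development of αβ T cells (chromosome 4, 152324436 to 152334082), had 4.18, 4.52 and 4.21 in WT and 3.40, 3.88 and 3.09 in KO, each KO library being lower. The low end held Rpl19 (chromosome 11, 98022003 to 98030493; mean 2.34), Rpl38 (chromosome 11, 114667818 to 114672333; mean 2.44), which favours translation of Hox messages in the embryo, and Rpl8 (mean 2.49).

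Small-subunit genes stood slightly higher, with a median of 3.70 over 31 genes and a range of 1.99 to 4.57. Rps19 (chromosome 7, 24884592 to 24889811), the gene most often mutated in Diamond-Blackfan anaemia, was the tallest, at 4.46, 4.78 and 4.86 in WT and 4.70, 4.75 and 3.87 in KO. The groups overlapped, since only KO replicate 4 lay below every WT library. Rps6 (chromosome 4, 86854099 to 86857367), the target of S6 kinase below mTOR, had 3.96, 4.30 and 4.48 in WT and 3.65, 3.88 and 3.26 in KO. Rps14 (chromosome 18, 60774596 to 60778546), whose loss of a copy impairs red cell formation, had 3.96, 4.30 and 4.28 and 3.80, 3.81 and 3.22. Rps3 (chromosome 7, 99477896 to 99483709), at the entry of the messenger channel, had 3.86, 4.00 and 4.00 and 3.65, 3.81 and 3.30. In these 3 genes every KO value was under every WT value, as in 55.3% of all 13001 genes. So it was at Rpsa (chromosome 9, 120127766 to 120132369), known also as the laminin receptor, with 3.61, 4.07 and 3.72 and 3.50, 3.31 and 2.91. On the common-gene scale described below, Rps3 had the reverse order, with 1.32, 1.27 and 1.33 in WT and 1.43, 1.61 and 1.38 in KO. There the groups overlapped at Rps6, Rps14 and Rpsa. Rps27a (chromosome 11, 29545842 to 29548040), which is made as a fusion to ubiquitin, had 3.68, 4.22 and 4.14 and 3.70, 3.38 and 3.09, with overlap at KO replicate 1.

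The stalk proteins, which draw elongation factors to the ribosome, were encoded by 3 genes of similar height. Rplp0 (chromosome 5, 115559467 to 115563729) had 3.96, 3.96 and 4.59 in WT and 3.45, 4.00 and 3.48 in KO. Rplp1 (chromosome 9, 61913283 to 61914510) had 3.93, 4.15 and 3.79 and 4.15, 4.00 and 3.26. Rplp2 (chromosome 7, 141447651 to 141451359) had 4.21, 4.89 and 4.10 and 4.15, 4.44 and 3.83. The groups overlapped at all 3.

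**Figure D3:**
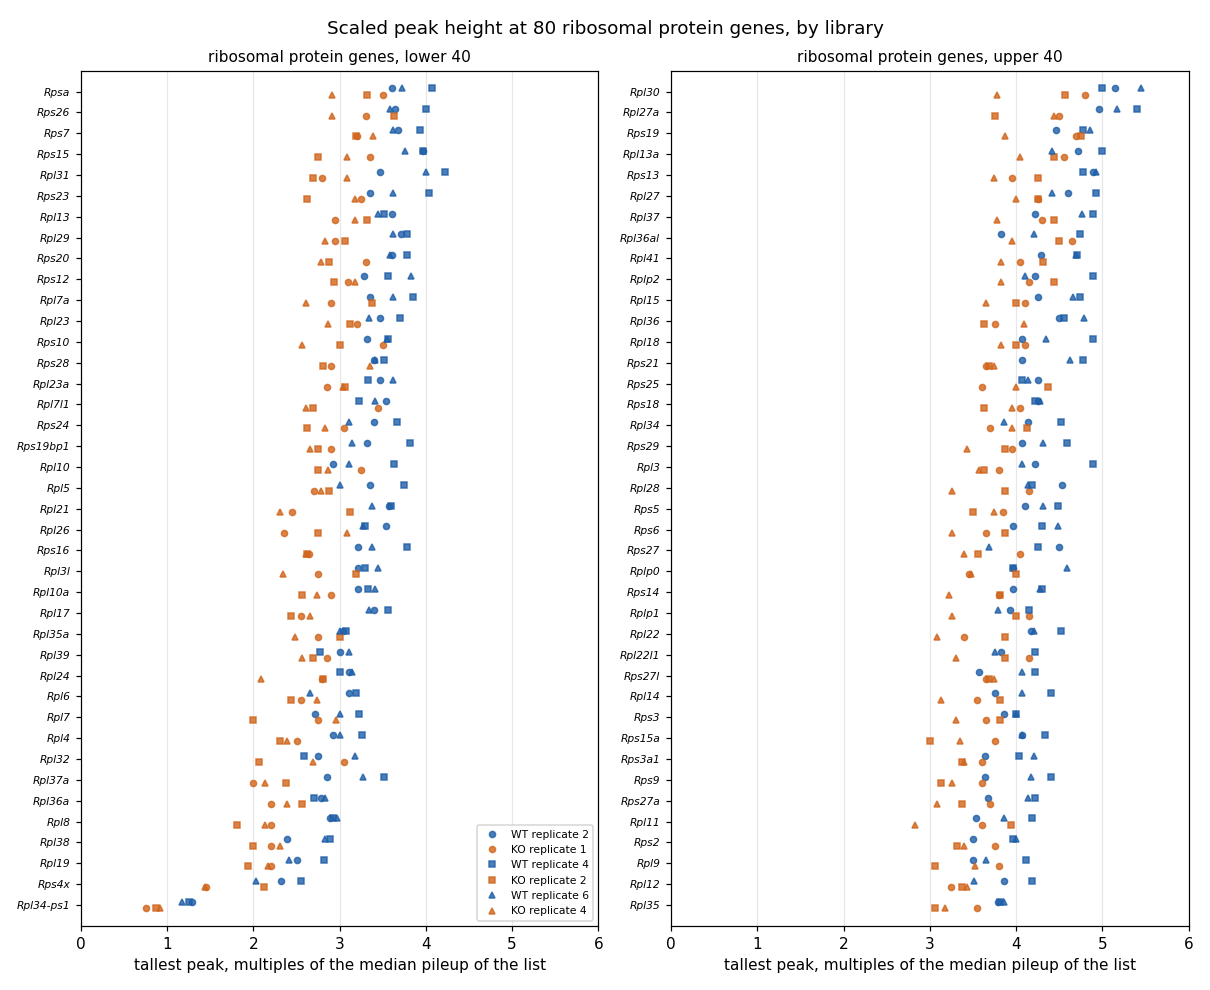
Scaled height of the tallest peak (horizontal axis, multiples of the median pileup of the list) at 80 of the 84 open ribosomal protein genes (rows, ordered by mean height, lower 40 at left and upper 40 at right). Points are single libraries, blue for WT and orange for KO. On this scale KO points lie mostly to the left of WT points, as they also do over all genes (the order turns round on the common-gene scale), and Rpl34-ps1 and Rps4x stand lowest.

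On the scale of the list median, KO heights were lower across the family and across the genome. In 51 of the 84 members all 3 KO libraries were below all 3 WT libraries, beside 55.3% of all 13001 genes. In 0 members were all 3 above, beside 0.108% of genes. Each such separation has a two-sided exact permutation p of 0.1, the smallest that 3 against 3 libraries allow, so no gene can pass a threshold of 0.05. The median log2 KO to WT difference was -0.22 over the members and -0.28 over all genes. The share of members that were lower was therefore near the background, and this scale mostly carries the shift of all genes. In bulk data a lower peak cannot tell fewer cells with the site open from less signal per cell.

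Heights were also divided by the median over the 13001 genes open in every library, which removes nearly all of that shift (median of all genes 0.03). In this common-gene scale 20 of the 84 members were higher in all 3 KO libraries, beside 18.7% of genes. Lower in all 3 were 3 members, beside 8.28%. These counts are small, and their distance from the shares of all genes was not tested. The median difference over the members was 0.09 on the log2 scale, a ratio of 1.07, and 69 members (82.1%) had a higher mean in KO, against 56.4% of all genes. The typical standard error of a member's difference was 0.081, about the size of that median. The median member stood at 1.24 to 1.27 in WT and 1.33 to 1.37 in KO. The upper quartile of all genes, where the median member stands, was 1.24 to 1.28 in WT and 1.33 to 1.39 in KO, which is a comparison of quartiles and not of the same genes. By rank among the 13001 genes, an alternative chosen after seeing the data, 2 members were higher in all 3 KO libraries (Rpl39 among them), beside 9.21% of genes. By that measure 8 were lower (Rpl8, Rpl15, Rpl17, Rpl27a, Rps13, Rps15, Rps15a and Rps16), beside 8.17%. Other scales gave other splits. Per M tags kept, 1 member was taller in every KO library (3.86% of genes) and 0 lower (2.16%), and by the deposited fold enrichment 12 were taller (8.11%) and 6 lower (14.6%). In lists shortened to equal length (37266 peaks) and divided by their own median, 16 were taller (20.6%) and 1 lower (5.71%), and on the common-gene scale in those lists 19 (18.1%) and 5 (8.84%). With only peaks within 1 kb of an annotated start, 14 of 62 members were taller (19.2%) and 0 lower (9.07%) on the common-gene scale. The direction of the family's difference thus depended on the scale and on the length of the lists. By list median it was lower in the full lists and higher in equal-length lists (median log2 difference 0.133). By common genes it was higher, and by rank close to 0, with a median of -0.476 percentile points.

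**Figure D4:**
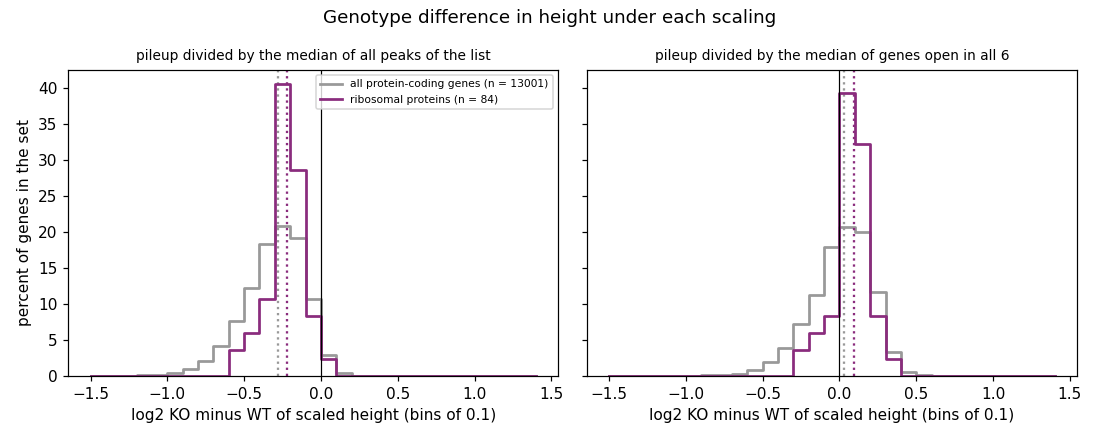
Difference in log2 scaled height, KO minus WT (horizontal axis, bins of 0.1), against the percent of genes in the set (vertical axis), with heights divided by the list median at left and by the median of the genes open in all 6 libraries at right. Dotted lines mark medians, -0.22 for 84 ribosomal protein genes and -0.28 for 13001 genes at left, 0.09 and 0.03 at right. The ribosomal protein genes form a narrower curve whose median lies slightly to the right of that of all genes.

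Large-subunit genes and paralogs were among the members higher in every KO library on the common-gene scale. Rpl36al (chromosome 12, 69182734 to 69184067), a near-copy of Rpl36a, had common-scale heights of 1.30, 1.51 and 1.40 in WT and 1.82, 1.89 and 1.65 in KO, a log2 difference of 0.35 ± 0.08 (SE, n = 3 against 3). It was also 1 of the 2 members with a higher KO mean on the list-median scale. Rpl22l1, the paralog of Rpl22 (chromosome 3, 28805508 to 28807424), had 1.30, 1.34 and 1.25 and 1.63, 1.63 and 1.38 (0.25 ± 0.08). Rpl22 itself differed by -0.01 ± 0.11 with overlapping groups; the difference between these paralogs was not tested. Rplp1 (0.25 ± 0.10), Rpl34 (chromosome 3, 130726827 to 130730398; 0.22 ± 0.09) and Rplp2 (0.22 ± 0.09) were likewise higher in all 3 KO libraries, while Rplp0 (0.12 ± 0.12) overlapped.

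Lower in every KO library on the common-gene scale were 3 members. Rpl8 (chromosome 15, 76904071 to 76906318), close to the site where amino acids are joined, had 0.988, 0.929 and 0.989 in WT and 0.863, 0.763 and 0.891 in KO, a log2 difference of -0.21 ± 0.07. Rpl17 (chromosome 18, 74998978 to 75003381), near the exit tunnel of the ribosome, had 1.16, 1.13 and 1.11 and 1, 1.03 and 1.11 (-0.12 ± 0.05), where KO replicate 4 lay just under the lowest WT library. Rpl34-ps1 (chromosome 6, 71124589 to 71125001) had 0.439, 0.400 and 0.391 and 0.294, 0.368 and 0.382 (-0.24 ± 0.13). Rpl8 and Rpl17 were lower by rank as well. Rpl37a (chromosome 1, 72711260 to 72713813), a zinc-binding protein, had the largest drop on the list-median scale. Its heights there were 2.86, 3.52 and 3.28 in WT and 2.00, 2.38 and 2.13 in KO, a log2 difference of -0.57. On the common-gene scale the groups at Rpl37a overlapped (-0.26 ± 0.12), as they did at Rpl31 (chromosome 1, 39367851 to 39371911; -0.13 ± 0.09). At the median member, 69 to 108.5 tags stood at the summit, and 52 in KO replicate 2, so counting error alone is 9.60% to 13.9% of a height in a single library.

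Peaks at the family were shorter in KO, to a like or smaller extent than over the genome. The tallest peak had a median length of 1043.5, 1004.5 and 1007 bp in WT and 892.5, 793.5 and 908.5 bp in KO. All genes had 962 to 993 bp and 733 to 852 bp. In 36 members the peak was shorter in all 3 KO libraries, beside 44.5% of genes, and in 0 it was longer in all 3, beside 0.2%. The median ratio of KO to WT length was 0.880 over the members and 0.830 over all genes. Rpl35, a protein at the exit tunnel (chromosome 2, 39001581 to 39005131), had the largest difference, with 700, 751 and 725 bp in WT and 380, 334 and 414 bp in KO. Its height on the common-gene scale differed by 0.08. Rps14 followed with 1272, 1281 and 1106 bp and 767, 776 and 793 bp, then Rpl9 (1081 ± 161 and 728 ± 87.7 bp, SD), Rpl23 (1081 ± 40.0 and 736 ± 37.4 bp) and Rps6 (1339 ± 16.0 and 923 ± 55.0 bp). At each of these 5 genes the groups were apart. Only Rps27l, Rpl30, Rpl11, Rps10 and Rps27a had a longer mean in KO, all with overlapping groups. The groups differ in depth in the same way, and the 2 cannot be told apart here.

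**Figure D5:**
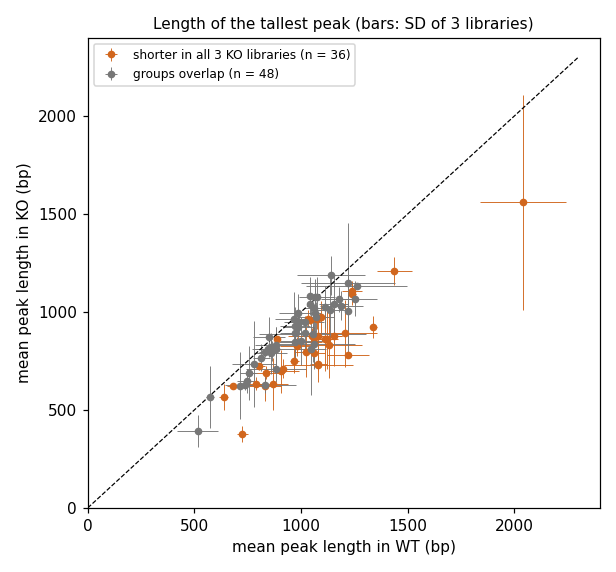
Mean length of the tallest peak in KO (vertical axis, bp) against WT (horizontal axis, bp) at 84 ribosomal protein genes, with bars for the SD of 3 libraries and a dashed line of equality. Orange points mark the 36 genes whose peak was shorter in all 3 KO than in all 3 WT libraries, and 79 points lie under the line.

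Beyond the promoter, few regions were found at these genes. Merged over the 6 lists, 103 regions lay at members, 1 at 67 genes, 2 at 17 genes and 3 at Rpl19. Of these, 94 (91.3%) were called in all 6 libraries, beside 45.4% of the 64817 regions of the genome. None was called in all 3 WT and no KO libraries or the reverse, where the genome had 3022 and 12 such regions. The 9 regions not in all 6 lists had mean heights of 0.53 to 1.97, all under the lower quartile of the members' tallest peaks (3.07). Rpl19 held 2 of them, at chr11:98022331-98023019 by Cacnb1 (1.63) and chr11:98031352-98031748 in its flank (1.05), and both were missing from 1 KO library. A flank region at Rps10, chr17:27629253-27629889 (1.004), was missing from KO replicate 2. Single WT libraries had extra regions at Rpl34, Rpl26, Rpl10 and Rps4x, at heights of 0.75 to 1.19. The region of Rpl37rt was also among the 9.

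Of the 14 paralogs and namesakes, 7 had a peak in all 6 lists, Rpl37rt in 4 and 6 in none. Among the 7, Rpl22l1 (mean height 3.86), Rpl36al (4.31) and Rps27l, a target of p53 (chromosome 9, 66944624 to 66949522; 3.82), were as tall as structural genes. Rps19bp1 (chromosome 15, 80260614 to 80264306; 3.10), Rpl7l1, a nucleolar relative of Rpl7 (chromosome 17, 46773907 to 46782656; 3.15), and Rpl3l (chromosome 17, 24727826 to 24736143; 3.04, at the edge of Msrb1) were lower. Rps27l had common-scale heights of 1.22, 1.34 and 1.36 in WT and 1.43, 1.55 and 1.56 in KO, higher in all 3 (0.22 ± 0.06). Rps19bp1 and Rpl7l1 differed by 0.01 ± 0.06 and 0.08 ± 0.12, with overlap. Rpl34-ps1 was far below the rest, at 1.29, 1.26 and 1.17 on the list-median scale in WT and 0.750, 0.875 and 0.913 in KO, from a peak in its flank. Rpl10l (chromosome 12, 66283379 to 66284401) and Rpl39l (chromosome 16, 10170197 to 10174911), the testis forms of the X-linked Rpl10 and Rpl39, had no peak in any list.

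The 4 X-linked members, Rps4x, Rpl10, Rpl39 and Rpl36a, were lower than the 80 autosomal ones, with median heights of 2.70 and 3.61. All 364 open X-linked genes had a median of 2.03. Rps4x (chromosome X, 102184941 to 102189391) had the lowest peak of the structural genes, at 2.32, 2.56 and 2.03 in WT and 1.45, 2.12 and 1.43 in KO, and only KO replicate 2 overlapped with WT. Rpl10 (chromosome X, 74270816 to 74273135), a late-joining large-subunit protein mutated in some T cell leukaemias, had 2.93, 3.63 and 3.10 and 3.25, 2.75 and 2.87. Rpl39 (chromosome X, 37082518 to 37085222) had 3, 2.78 and 3.10 and 2.85, 2.69 and 2.57. Rpl36a (chromosome X, 134585654 to 134588062) had 2.79, 2.70 and 2.83 and 2.20, 2.56 and 2.39, the only X-linked member that was lower in every KO library. On the common-gene scale the median KO to WT difference was 0.14 over the 4 X-linked and 0.09 over the autosomal members, and -0.03 over X-linked genes. The lists also differed by their chromosome Y peaks, and the part of that difference in the X-linked values was not tested.

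Members that host snoRNA genes did not stand higher than the others. Of the 84, 30 held 59 annotated snoRNA genes and had a median height of 3.33, against 3.63 in the 54 without. Processed copies of ribosomal protein genes are frequent in mammalian genomes. None of 324 annotated ribosomal protein pseudogenes overlapped a peak in any list, while 2.26% to 3.33% of 10105 other pseudogenes did. Within 1 kb, 8, 11 and 11 of the 324 had a peak in the WT lists and 6, 3 and 5 in the KO lists, which is 0.926% to 3.40%, beside 4.21% to 6.04% of the others. Of the 324, 76 overlap a protein-coding gene. The sources used here do not say how reads that match near-identical copies were treated, so the heights of members with close copies and the 0 at pseudogenes are both uncertain in that respect.

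Other genes of the translation machinery were open too. Every gene of 6 lists had a peak in all 6 libraries: 78 mitochondrial ribosomal protein genes, 5 ubiquitin fusions and partners outside the symbol rule, 7 elongation factors, 30 initiation factors, 32 biogenesis genes and 18 regulators. The counts on the common-gene scale that follow stand beside 18.7% of all genes higher and 8.28% lower. On that scale 15 mitochondrial ribosomal protein genes were higher in all 3 KO libraries and 12 lower, with a median difference of 0.01. Mrpl54 (0.963, 1.05 and 1.07 in WT and 1.39, 1.47 and 1.25 in KO) was the highest of them and Mrpl3 the lowest (0.415, 0.482 and 0.391 and 0.373, 0.289 and 0.327). Mrps31 was lower too, with a log2 difference of -0.36. Of the partners, Rack1 and Serbp1, which sit on the small subunit, were higher (0.25 and 0.21), while Fau, made as a fusion to a ubiquitin-like protein (0.03), overlapped. Elongation factors had 3 higher and 0 lower, led by Eif5a (0.39). Initiation factors had 7 and 1, led by Eif5 (1.39, 1.46 and 1.60 in WT and 2.02, 1.92 and 1.76 in KO) and Eif4a1 (0.33). Biogenesis genes had 12 and 2, led by Dkc1, the snoRNA-guided pseudouridine synthase (0.33), and nucleolin, Ncl (0.29). Regulators had 7 and 2: Mdm2 (0.37), Tsc1, which restrains mTOR (0.27), and the S6 kinase gene Rps6kb1 (0.27) were among the higher, and the GABP subunit gene Gabpb1 (-0.23) among the lower. Its partner Gabpa (0.07) and Myc (0.08) overlapped. By rank the lists had 6, 0, 1, 3, 2 and 4 higher and 11, 1, 1, 3, 3 and 2 lower members in the order above, against backgrounds of 9.21% and 8.17%.

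Ribosomal protein genes took a larger share of the shorter KO lists. The lists held 100, 104 and 99 peaks at members in WT and 97, 98 and 100 in KO, nearly the same numbers in lists of different length. They made up 0.188%, 0.186% and 0.187% of the WT and 0.229%, 0.263% and 0.234% of the KO peaks, a difference of 0.0549 percentage points. With only the 37266 most significant peaks of each list, as many as the shortest holds, the difference was 0.00089 percentage points.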

How the data were processed

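ATAC-seq peak lists of 6 Treg libraries (3 WT, 3 KO) were used, grouped by the genotype in the labels. Per the submitters' processing notes the tools included Bowtie2 2.3.1 and Picard 1.88, and the build was mm10. Per the file headers, MACS 2.1.1.20160309 called each library alone, without a control, at a q-value of 0.05 with a tag shift of -100 bp and an extension of 200 bp. The treatment of reads with several matches, of mitochondrial reads and of the Tn5 offset: not given in the sources used here. As a signal, the deposited pileup is coverage at the summit in tags, not scaled to depth. The deposited −log10 p-values and −log10 q-values rate that height over local background, and the deposited fold enrichment is its ratio to it.

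Gene spans came from RefSeq on GRCm38.p6, which gives no exons, and starts from a promoter table. For each gene and library the tallest peak within 1 kb was taken and its pileup divided by the list median or, as the common-gene scale, by the median over genes with a peak in all 6 libraries. Genes were called where the 3 KO values all lay above or all below the 3 WT values, which is a two-sided exact permutation p of 0.1 over 20 assignments. The rule was applied to all protein-coding genes. It was also run on simulated heights with planted changes and counting error alone. That simulation held no other spread between libraries, so it does not give the rate of false calls in these data. No peak or gene was filtered on height, and a few genes that these rules name are not reported here. The members and lists were chosen with earlier results of these data known. The text names a fixed set of 22 members, the 5 tallest and lowest, the 5 with the largest differences in each direction among those called, members without a peak, and up to 3 genes a list. Members named for length, rank, neighbours or summits, and Fau, Gabpa, Gabpb1 and Myc, were named after their values were seen, and the 2 sequence features of the first bases were also added later. Alternatives were other scales, lists and windows, each library left out, and pairs by number. Versions were SciPy 1.17.1, pandas 2.3.3, NumPy 2.4.6, Matplotlib 3.10.9 and Python 3.11.15.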

Additional observations from a re-analysis of the deposited data

How the results depend on the processing

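The count of members with a peak in all libraries used was 84 to 84 when each library was left out. With the common-gene scale, 20 members were taller and 3 lower in KO, with a median log2 difference of 0.0920. Per M tags the values were 1, 0 and 0.151 (all genes 3.86% taller, 2.16% lower), and by fold enrichment 12, 6 and 0.0446 (8.11% and 14.6%). Equal-length lists of 37266 peaks, scaled by their own median, gave 16, 1 and 0.133 (20.6% and 5.71%). The sign of the family's median thus changed with the scale and with the length of the lists. Its distance from the median of all genes is 0.060 by list median, common genes and tags, which is the same by construction, and was 0.072 by fold enrichment. With −log10 q of at least 5 the median was -0.307. Chosen after seeing the data, rank gave 2 taller and 8 lower, the common-gene scale in equal-length lists 19, 5 and 0.0840, and the common-gene scale within 1 kb of starts 14, 0 and 0.0962. The share of peaks differed by 0.00089 points in equal-length lists, 0.0834 with the stricter threshold, 0.0728 with 5 kb flanks and 0.0368 at starts. Leaving out each library gave medians of -0.253 to -0.182, 52 to 62 members lower (57.8% to 69.7% of genes), 0 to 1 taller (0.169% to 0.714%), 38 to 48 shorter (47.7% to 62.5%) and 0 to 0 longer (0.423% to 1.46%), and a share difference of 0.0443 to 0.0615. Single genes were set against their difference on the common-gene scale, with the shift of all genes relative to that scale taken off. On this basis Rpl27a turned from 0.014 to -0.0197 by fold enrichment. Its groups overlapped on the common-gene scale, while by list median it was lower in KO (-0.297). Rpl17 turned from -0.119 to 0.0888 with 5 kb flanks. The causes of these changes were not tested. A height of 52 to 108.5 tags at the median member limits the differences that 1 library can show, and 3 libraries against 3 cannot reach a p under 0.1.

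Deviations of same-numbered libraries from their group means were nearly uncorrelated (r of -0.037 for replicates 2 and -0.021 for replicates 4, across genes). With only 2 such pairs, this does not settle whether the numbers pair the samples. The replicate block over these 2 pairs gave a median of -0.25 (all genes -0.31) and 68 members lower (79.0% of genes). It had 1 taller (1.02%), 64 shorter (73.7%) and 2 longer (1.74%). Rpl38, on the common-gene scale less the shift of all genes, turned from -0.0045 to 0.0506.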
